A study of Homo sapiens with 24 samples.

Results

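Homeobox genes encode transcription factors that bind DNA through a homeodomain, and 51 of them are described here. They were the gene symbols of the HOX, sine oculis, DLX, MSX, MEIS, PBX, PKNOX, TGIF, IRX, PITX, PRRX, ZHX, CUX and ZEB families whose mean over all 24 libraries was at least 1 TPM, an abundance per transcript length that adds up to the same total in each library. The family names matched 82 symbols. The other 31 lay under the minimum, and 10 of these, among them DLX5, DLX6, HOXB1, HOXB9, HOXD1, IRX1, IRX2, MSX2 and PKNOX2, were listed at 0 in every library. The members nearest to the minimum were DLX4 at 1.00 TPM and PBX4 at 1.03 TPM, and the nearest symbols under it were HOXB3 and HOXA2, each at 0.77 TPM. All 51 members are in the tests below, which were fitted over the 13416 genes that reached the same minimum.

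The cells were U2OS, a human osteosarcoma line, in a custom double stable Tet-off derivative that carries a doxycycline-repressed S254D mutant of TOB2, with a serine changed to aspartate to mimic phosphorylation. TOB2 is an antiproliferative adaptor that links mRNAs to the CCR4-NOT deadenylase. In the uninduced arm doxycycline was in the medium, and in the induced arm it was left out, so the drug and the transgene cannot be told apart. RNA labelled with bromouridine was immunoprecipitated from cytoplasmic RNA at 0, 0.5, 1, 2, 4 and 6 h of chase, with 2 libraries per arm and time, numbered replicate 1 and replicate 2. Both arms share the line, the transgene and the labelling. The labels name a line and no clone, and do not say that replicates were separate cultures. The p-values thus refer only to these libraries, whose spread may be technical. Those of the slopes and slope differences also carry the departure of each course from a straight line.

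TOB2 lay between 92.3 and 267 TPM in the uninduced and between 499 and 725 TPM in the induced libraries, without overlap. Pearson's r across genes, which are not independent replicates, was 0.97 to 0.986 between the libraries of a group. The labels call the cells epithelial, but 7 of the 9 epithelial markers examined, among them KRT14, CDH1 and GRHL2, stayed at means of 0.00667 to 0.179 TPM, EPCAM was at 0, and CLDN4 was at 1.22 TPM. The summed epithelial markers ranged from 1.06 to 2.47 TPM in uninduced and from 0.44 to 2.78 TPM in induced libraries. Of 12 osteoblast and mesenchymal markers, 4 reached 1 TPM, namely VIM (580 TPM), COL1A1 (12.5 TPM), RUNX2 (4.13 TPM) and BGLAP (1.72 TPM), while SP7, ALPL and SPP1 were at 0.00958 to 0.143 TPM and IBSP at 0. Their sums were 402 to 861 TPM in uninduced and 360.2 to 986 TPM in induced libraries. Of 8 leukocyte markers, LYZ (29.7 TPM), CD68 (8.04 TPM) and CD14 (1.19 TPM) reached the minimum, PTPRC, CD3E and ITGAM were at 0.149 TPM or less, and MS4A1 was at 0. Their sums were 21.0 to 52.5 TPM in uninduced and 24.5 to 72.1 TPM in induced libraries, and their part in the results was not tested.

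Homeodomain proteins set the identity of body segments, limbs and organs, and many remain expressed in lines derived from the mesenchyme of the limb and trunk. HOX proteins gain binding specificity from partners of the TALE class, PBX and MEIS. Factors of the sine oculis family act with EYA coactivators, and messages of developmental transcription factors as a class are often short-lived. In a pulse-chase, a message that is lost faster than the average labelled RNA becomes a smaller share of it, and one that is lost more slowly becomes a larger share. TPM shows only this share, and labelled RNA that reached the cytoplasm after the pulse cannot be separated from loss. RNA was pooled over all cells of a library, so fewer cells holding a message and less of it per cell cannot be told apart.

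SIX2, a factor known for keeping nephron progenitors undifferentiated, showed the largest difference between the arms of any member, and its promoter is therefore shown. The 250 bases before its start site in RefSeq on GRCh38.p14 are chr2:45009453-45009702, minus strand, with a CCAAT match in capitals.
SIX2: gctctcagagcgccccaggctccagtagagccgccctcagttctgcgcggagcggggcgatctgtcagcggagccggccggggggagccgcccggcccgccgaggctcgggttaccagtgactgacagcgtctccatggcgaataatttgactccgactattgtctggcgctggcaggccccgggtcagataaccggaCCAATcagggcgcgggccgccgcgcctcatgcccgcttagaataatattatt
CCAAT and TATAAA were searched on both strands, as CCAAT or ATTGG and as TATAAA or TTTATA, which share no overlap. The CCAAT match lay 52 to 48 bases before the start, and TATAAA had no match in the window. Of 35116 RefSeq windows of the same length, 32.0% held CCAAT and 10.7% held TATAAA. The SIX2 window held 26 CG dinucleotides, more than 80.4% of windows, whose median was 11. The libraries hold RNA and measured nothing in this window, and 30 of the 51 members matched an entry of the promoter table.

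The summed level of the 51 members was lower at 6 h than at 0 h in both arms, and at 6 h it was lower in both induced than in both uninduced libraries. It was 2030 ± 24.4 TPM at 0 h in uninduced cells and 1339 ± 139 TPM at 6 h (SD, n = 2). In induced cells it was 1958 ± 65.2 TPM and 958 ± 22.6 TPM at these times (SD, n = 2). TGIF1 alone went from 472 and 566 TPM at 0 h to 36.8 and 31.2 TPM at 6 h in uninduced cells. In induced cells TGIF1 went from 507 and 509 TPM to 25.4 and 22.1 TPM, so much of the fall of the sum was that of TGIF1. The sum at 1 h was 2094 ± 55.8 TPM without and 2059 ± 48.5 TPM with induction, so the lower values came later in the chase. The highest group mean stood at 1 h for 9 and at 2 h for 15 of the 51 members in uninduced cells, and at 1 h for 17 and at 2 h for 10 in induced cells.

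The slope in uninduced cells describes each message with doxycycline in the medium. Any leak of the repressed mutant there was not measured. Slopes are in log2(TPM + 1) per hour, and adjusted p-values are from limma with the Benjamini-Hochberg method over all genes tested, at a threshold of 0.05. Of the 51 members, 19 fell and 9 rose, while 22.3% of all genes fell and 42.8% rose. The median slope was -0.03 for the members and 0.04 for all genes. Among the members that fell were SIX4, HOXA5, HOXA9, HOXA11, HOXB6, HOXC9, HOXC11, MEIS1, MEIS2, TGIF1, IRX3, IRX5, DLX1, DLX2, DLX3, MSX1 and ZHX2. Those that rose were HOXC6, HOXC10, MEIS3, PKNOX1, PBX2, TGIF2, PITX1, ZHX1 and CUX1, but the slopes of PITX1 and TGIF2 changed sign under quantile normalization, to -0.02 in both. Besides this, PITX1 and TGIF2 lost their call in 14 and 13 of 38 alternatives. The fall of MSX1 lost its call in 16 of 38 and the rise of MEIS3 in 9 of 37. The split depended on the scaling: with median-of-ratios scaling, without RMRP, MIR6723 and RPPH1, or with protein-coding transcripts only, which left 50 members, 3 rose and 26 fell. Under these 3 settings, in the same order, 32.3%, 29.8% and 27.2% of all genes fell and 30.3%, 31.9% and 33.9% rose. Median-of-ratios scaling shifted the all-gene median by -0.26 over 6 h in uninduced and by -0.19 in induced cells. Over the chase from 0 to 4 h 16 members were called, of which 6 rose and 10 fell, while 38.8% of all genes rose and 11.4% fell. Without replicate 1 there were also 16, of which 6 rose and 10 fell, against 36.5% and 13.5% of all genes.

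In induced cells 29 members fell and 8 rose, while 29% of all genes fell and 41.6% rose. The median slope was -0.08 for the members and 0.03 for all genes. Of the 19 that fell in uninduced cells, 18 also fell in induced cells, and 11 more fell only in the induced test, among them SIX2, HOXA10, HOXB7, HOXC4, HOXC13, HOXD10, PITX3, ZEB1, ZEB2 and ZHX3. Passing in 1 arm only is no test of a difference, and SIX2 also fell in uninduced cells under the 4 other scalings given with its values. HOXC6, HOXC10, MEIS3, PKNOX1, PBX2, ZHX1 and CUX1 rose again in induced cells, and DLX4 joined them.

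**Figure D1:**
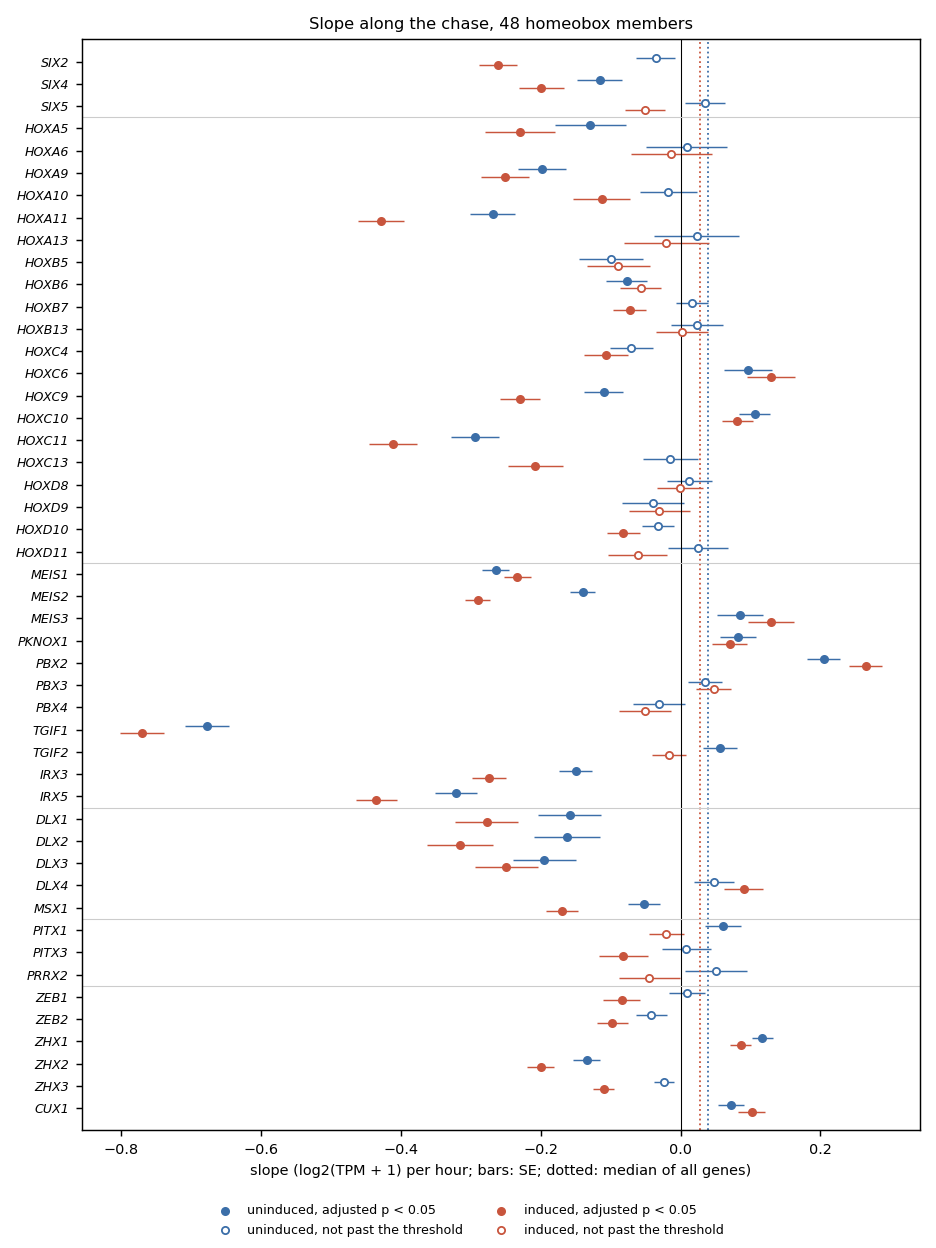
Slopes of 48 members along the chase, in log2(TPM + 1) per hour on the horizontal axis, with uninduced cells in blue, induced cells in red and bars for the SE. Filled points passed the threshold and dotted lines mark the medians of all genes; TGIF1 lies far to the left at -0.68 and -0.77, PBX2 farthest to the right, and for most members the red point lies left of the blue one.

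The slope difference, induced minus uninduced, tests whether a message's share of the labelled RNA changed differently over the chase in the induced arm. It passed the threshold for SIX2 and MEIS2, both negative, and for no member in the positive direction, while 0.335% of all genes were called lower and 0.00745% higher. The estimate was negative for 41 of 51 members and for 56.9% of all genes, with a median of -0.07 against -0.01 for all genes. It was negative in both replicate series for 34 members and positive in both for 7, against 39.2% and 27.7% of all genes. At an unadjusted p under 0.05 limma gave 19 members and 12.5% of all genes. The number of members called moved with the setting. It was 8 without RMRP, MIR6723 and RPPH1, where 2.36% of all genes were lower, and 11 with protein-coding transcripts only, where 3.32% were. The trend contrast of the group means, whose spread leaves out the departure from a straight line, called 18, with 5.87% of all genes lower. None passed over 0 to 4 h, where no gene was lower, or without induced 6 h replicate 1, where 0.0596% of genes were. At 0 h no member passed in either direction, with 3 at an unadjusted p under 0.05 (SIX2, SIX5 and MSX1, all lower in induced cells) against 6.57% of all genes, the smallest adjusted p being 0.626 for MSX1. Of all genes, 0.0224% were higher and 0.00745% lower at 0 h.

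At 6 h, 19 members were lower in induced cells and none was higher, while 8.04% of all genes were lower and 1.1% higher. The median difference was -0.39 for the members and 0.02 for all genes, and 37 of 51 were negative. Both induced libraries lay below both uninduced libraries for 29 members, among them all 19 called, against 28.4% of all genes. For the 19, the level in uninduced cells was 1.37 to 3.11 times that in induced cells. Over the mean of the 6 times, 17 members were lower and DLX3 was higher, while 11.4% of all genes were lower and 14.3% higher. The 17 were the members called at 6 h other than HOXD11 and ZEB1. The 6 h count rested on single libraries. It was 9 without uninduced 6 h replicate 1, with SIX2, HOXA11, HOXB7, HOXC9, HOXC11, HOXC13, IRX3, MEIS2 and MSX1 left, and 11 without induced 6 h replicate 1, with PITX1 and TGIF1 added to these 9. Of all genes, 3.4% were lower without the former library and 3.59% without the latter.

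The calls at 6 h lay among the abundant members. Of 25 members with a mean of at least 20 TPM, 18 were lower, while 14.2% of the 6188 genes at that level were. Between 5 and 20 TPM it was 1 of 12 members, SIX5, and 4.27% of genes. Between 1 and 5 TPM it was 0 of 14 members by limma and 0.726% of genes, and 5 of the 14 estimates were negative.

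**Figure D2:**
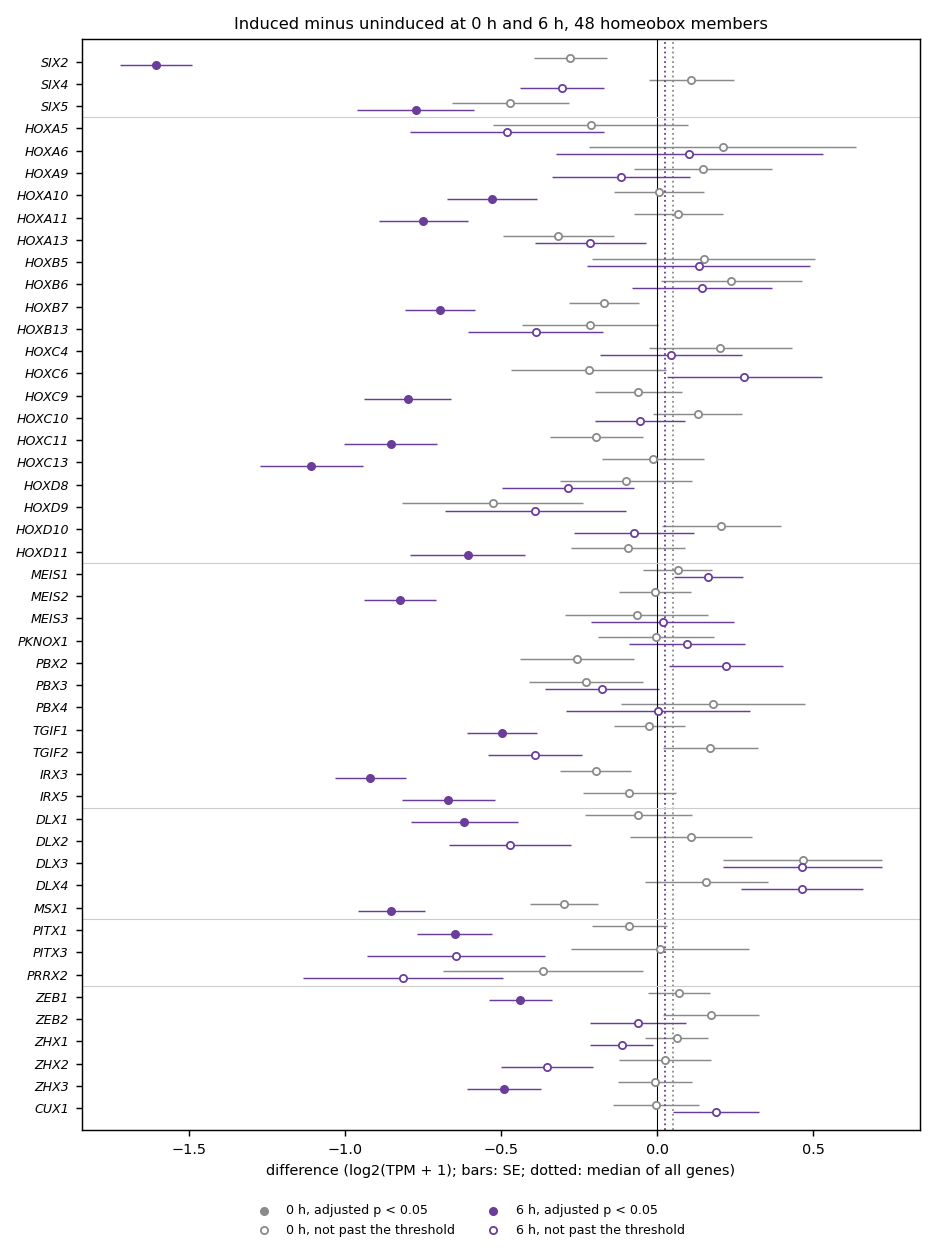
Difference between the arms, induced minus uninduced in log2(TPM + 1), at 0 h in grey and 6 h in purple for 48 members, with bars for the SE, filled points past the threshold and dotted lines at the medians of all genes. No grey point is filled, 18 purple points are filled and all of these lie left of 0, with SIX2 farthest at -1.61.

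The sine oculis family was represented by SIX2 (mean 73.6 TPM), SIX4 (32.2 TPM) and SIX5 (7.53 TPM). SIX2 read 84.3 and 89.3 TPM at 0 h in uninduced replicates 1 and 2, 79.9 and 91.0 at 0.5 h, 91.7 and 96.8 at 1 h, 99.9 and 106 at 2 h, 86.2 and 95.3 at 4 h, and 74.6 and 71.9 at 6 h. In induced cells it read 68.3 and 74.6 TPM at 0 h, 65.9 and 61.6 at 0.5 h, 84.7 and 72.9 at 1 h, 67.2 and 70.3 at 2 h, 41.5 and 44.8 at 4 h, and 20.6 and 26.5 at 6 h. Both induced libraries lay below both uninduced libraries at each of the 6 times, and the gap was widest at the end. The level at 6 h was 84.4% of that at 0 h in uninduced and 33.0% in induced cells. The slope was -0.04 (SE 0.0275, adjusted p = 0.258) in uninduced and -0.26 (SE 0.0275, adjusted p = 1.09e-08) in induced cells. The slope difference was -0.23 (SE 0.0389, adjusted p = 0.00807), and it was -0.27 in replicate 1 and -0.18 in replicate 2. At 0 h the difference was -0.28 (adjusted p = 0.677), and at 6 h it was -1.61 (SE 0.116, adjusted p = 4.41e-07). The mean difference was -0.70 (SE 0.0473, adjusted p = 1.05e-07).

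The slope difference of SIX2 ranged from -0.27 to -0.18 over the alternatives and kept its sign in all of them. It lost its call without induced 6 h replicate 1 (-0.19, adjusted p = 0.0677), without replicate 1 (adjusted p = 0.993), without replicate 2 (adjusted p = 0.22) and over 0 to 4 h (-0.20, adjusted p = 0.316). The uninduced slope of SIX2 depended on the scaling. It passed as a fall with quantile normalization (-0.12, adjusted p = 2.03e-05), with median-of-ratios scaling (-0.08, adjusted p = 0.00508), without RMRP, MIR6723 and RPPH1 (-0.07, adjusted p = 0.0127) and with protein-coding transcripts only (-0.08, adjusted p = 0.00625), and it was 0.02 (adjusted p = 0.596) over 0 to 4 h. The 6 h difference of SIX2 kept its call in each alternative, with adjusted p-values of up to 3.07e-05.

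SIX4 fell with slopes of -0.12 and -0.20 (adjusted p = 0.00297 and 6.3e-06). Its 6 h difference was -0.30 (adjusted p = 0.20), from 21.4 and 16.5 TPM in uninduced and 15.8 and 14.3 TPM in induced cells. SIX5, which lies beside the repeat of myotonic dystrophy, was at 8.05 and 7.40 TPM at 0 h and at 9.30 and 8.59 TPM at 6 h in uninduced cells. In induced cells SIX5 read 5.21 and 5.38 TPM at 0 h and 4.14 and 5.57 TPM at 6 h, so the libraries of the arms were already apart at 0 h. The 6 h difference of SIX5 was -0.77 (SE 0.187, adjusted p = 0.0133), which lost its call without either 6 h replicate 1 (adjusted p = 0.12 for the uninduced and 0.184 for the induced library), and its slope did not pass in either arm (0.03 and -0.05).

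**Figure D3:**
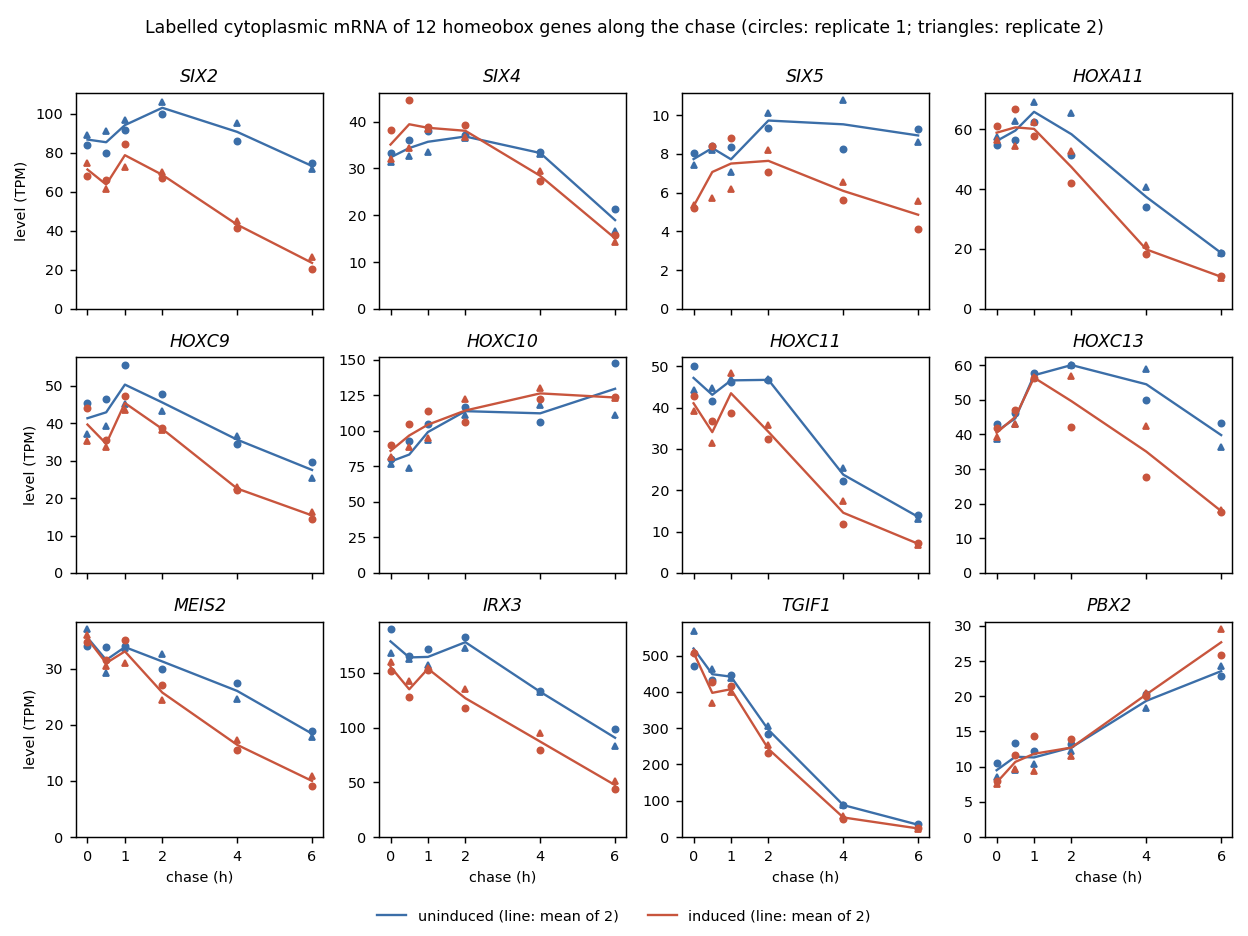
Level in TPM on the vertical axis against hours of chase for 12 members, with circles for replicate 1, triangles for replicate 2 and lines through the means of 2 libraries, uninduced in blue and induced in red. SIX2, HOXC13, MEIS2 and IRX3 separate between the arms toward 6 h, TGIF1 falls in both arms to under 40 TPM, and HOXC10 and PBX2 climb in both.

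Of the HOX genes, which pattern the body axis by their position in 4 clusters, 21 were measured. In the A cluster the means were 9.42 TPM for HOXA5, 2.40 for HOXA6, 4.17 for HOXA9, 46.7 for HOXA10, 46.1 for HOXA11 and 4.77 for HOXA13. In the B cluster they were 1.11 TPM for HOXB5, 6.70 for HOXB6, 64.7 for HOXB7 and 5.74 for HOXB13. In the C cluster they were 2.84 TPM for HOXC4, 4.84 for HOXC6, 36.6 for HOXC9, 106 for HOXC10, 33.0 for HOXC11 and 45.1 for HOXC13. In the D cluster they were 2.43 TPM for HOXD8, 4.26 for HOXD9, 10.7 for HOXD10 and 22.3 for HOXD11. The most abundant were thus HOXC10 and HOXB7, and 7 of the 8 above 20 TPM belong to paralogue groups 9 to 13, the posterior genes of trunk, limb and tail.

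In uninduced cells 7 HOX genes fell and 2 rose, while 22.3% of all genes fell and 42.8% rose. In induced cells 11 fell and 2 rose, while 29% of all genes fell and 41.6% rose. At 6 h 7 of 21 were lower in induced cells, against 8.04% of all genes and 14.2% of genes at 20 TPM or more. The 7 were 6 of the 12 measured genes of groups 9 to 13 and 1 of the 9 genes of groups 1 to 8, HOXB7. All 12 of groups 9 to 13 had a negative estimate. The median 6 h difference was -0.46 in groups 9 to 13 and 0.04 in groups 1 to 8. Most of the abundant HOX genes are posterior, as given above, and the difference between the paralogue groups was not tested. By cluster, 2 of 7 A genes, 1 of 4 B genes, 3 of 6 C genes and 1 of 4 D genes were lower. These counts are small, and the clusters were not compared by a test.

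HOXC13, a factor of hair and nail, read 43.0 and 38.8 TPM at 0 h and 43.4 and 36.3 TPM at 6 h in uninduced cells, against 41.8 and 39.2 TPM at 0 h and 17.7 and 18.1 TPM at 6 h in induced cells. Between these times it was higher, at 60.0 and 60.2 TPM at 2 h in uninduced and 42.3 and 57.0 TPM in induced cells. The arms overlapped at 0 h and were apart at 6 h. Its 6 h difference was -1.11 (SE 0.164, adjusted p = 3.93e-04), next in size to that of SIX2 among the members. Its slope was -0.01 (adjusted p = 0.758) in uninduced and -0.21 (SE 0.0395, adjusted p = 5.68e-05) in induced cells, with a slope difference of -0.19 (SE 0.0559, adjusted p = 0.13). HOXC11 fell steeply in both arms, with slopes of -0.29 (SE 0.0344, adjusted p = 9.08e-08) and -0.41 (SE 0.0344, adjusted p = 2.67e-10). It read 14.0 and 13.2 TPM at 6 h in uninduced and 7.31 and 6.82 TPM in induced cells, a difference of -0.85 (SE 0.148, adjusted p = 0.00128). HOXC9 went from 45.5 and 37.2 TPM to 29.7 and 25.4 TPM in uninduced and from 44.1 and 35.3 TPM to 14.4 and 16.4 TPM in induced cells. Its 6 h difference was -0.80 (SE 0.139, adjusted p = 0.00128). HOXC10 lies between HOXC9 and HOXC11 in RefSeq gene order and rose in both arms, with slopes of 0.11 (SE 0.0223, adjusted p = 2.19e-04) and 0.08 (SE 0.0223, adjusted p = 0.00235). It went from 78.3 ± 2.68 to 129 ± 25.9 TPM in uninduced and from 85.8 ± 6.25 to 123 ± 0.262 TPM in induced cells (SD, n = 2), and its 6 h difference was -0.06 (adjusted p = 0.865).

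HOXA11, a factor of the forearm and uterus, fell in both arms, with slopes of -0.27 (SE 0.0323, adjusted p = 1.32e-07) and -0.43 (SE 0.0323, adjusted p = 4.8e-11). It read 54.6 and 57.6 TPM at 0 h and 18.8 and 18.6 TPM at 6 h in uninduced cells. In induced cells it read 61.2 and 56.5 TPM at 0 h and 11.1 and 10.3 TPM at 6 h, a difference of -0.75 (SE 0.142, adjusted p = 0.00262). In uninduced cells its neighbour HOXA10 read 39.6 and 35.5 TPM at 0 h, and 59.9 and 63.3 TPM at 2 h. At 6 h HOXA10 read 42.9 and 33.3 TPM, against 26.3 and 25.4 TPM in induced cells. In induced cells at 2 h it had read 52.8 and 59.6 TPM. The 6 h difference of HOXA10 was -0.53 (SE 0.144, adjusted p = 0.0281) and its mean difference -0.17 (adjusted p = 0.0402). The 6 h call of HOXA10 was lost without uninduced 6 h replicate 1 (adjusted p = 0.332) or either induced 6 h library (adjusted p = 0.119 and 0.148), and the mean difference was under the threshold in 17 of its 34 alternatives. HOXB7 read 73.0 and 65.3 TPM at 6 h in uninduced and 39.0 and 45.7 TPM in induced cells, and was below at all 6 times. Its 6 h difference was -0.70 (SE 0.112, adjusted p = 7.09e-04). HOXD11 read 22.8 and 19.8 TPM at 6 h in uninduced and 14.7 and 12.6 TPM in induced cells, a difference of -0.61 (SE 0.183, adjusted p = 0.0476) that lost its call in 21 of 34 alternatives. HOXC6 rose in both arms, with slopes of 0.10 (SE 0.0343, adjusted p = 0.0168) and 0.13 (SE 0.0343, adjusted p = 0.00167). It shares exons with HOXC4 and HOXC5 in RefSeq, so its level is uncertain.

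**Figure D4:**
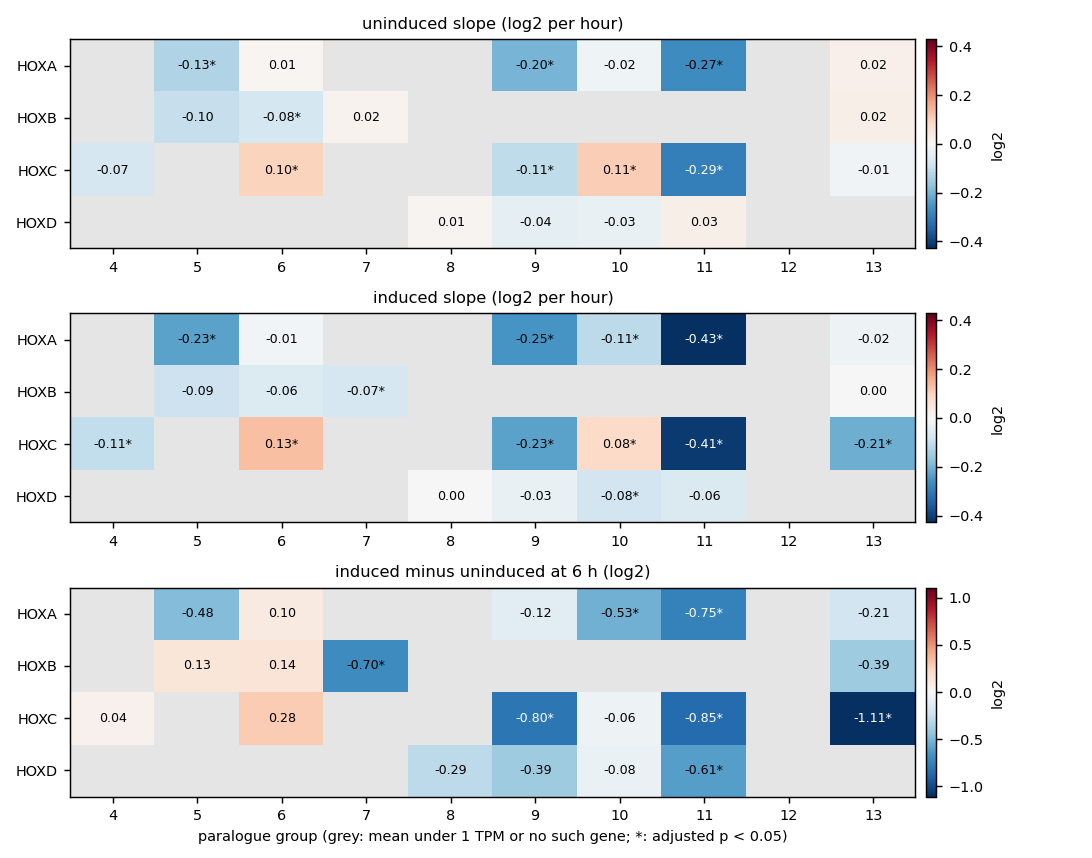
HOX genes by cluster (20 of the 21 measured) and paralogue group, with colour and number giving the uninduced slope, the induced slope (both log2 per hour, on 1 colour scale) and the difference between the arms at 6 h (log2), and asterisks for genes past the threshold. In the lowest panel all values of groups 9 to 13 are negative, down to -1.11 for HOXC13, those of groups 4 to 6 lie between -0.48 and 0.28, and groups 7 and 8 hold HOXB7 at -0.70, past the threshold, and HOXD8 at -0.29.

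TALE proteins, with a short insertion in the homeodomain, include the HOX partners MEIS and PBX, and 12 were measured. Their means were 14.2 TPM for MEIS1, 27.4 for MEIS2, 2.02 for MEIS3, 5.56 for PKNOX1, 14.9 for PBX2, 10.7 for PBX3 and 1.03 for PBX4. They were 288 TPM for TGIF1, 67.6 for TGIF2, 134 for IRX3 and 52.6 for IRX5. In uninduced cells 5 fell and 4 rose, while 22.3% of all genes fell and 42.8% rose. In induced cells 6 fell and 3 rose, while 29% of all genes fell and 41.6% rose. At 6 h MEIS2, IRX3, IRX5 and TGIF1 were lower in induced cells, as were 8.04% of all genes.

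MEIS2 read 34.1 and 37.0 TPM at 0 h in uninduced replicates 1 and 2, 33.8 and 29.3 at 0.5 h, 34.0 and 33.7 at 1 h, 29.9 and 32.7 at 2 h, 27.4 and 24.7 at 4 h, and 19.0 and 17.9 at 6 h. In induced cells it read 34.7 and 35.9 TPM at 0 h, 31.5 and 30.5 at 0.5 h, 35.1 and 31.1 at 1 h, 27.1 and 24.4 at 2 h, 15.5 and 17.4 at 4 h, and 9.07 and 10.9 at 6 h. The arms overlapped up to 1 h and were apart from 2 h on. The slope was -0.14 (SE 0.0179, adjusted p = 3.33e-07) in uninduced and -0.29 (SE 0.0179, adjusted p = 1.46e-12) in induced cells. The slope difference was -0.15 (SE 0.0253, adjusted p = 0.00807), with -0.19 in replicate 1 and -0.11 in replicate 2. The 6 h difference of MEIS2 was -0.82 (SE 0.114, adjusted p = 2.26e-04). Its slope difference kept its sign in all alternatives but lost its call without induced 6 h replicate 1 (-0.13, adjusted p = 0.0677), without replicate 1 (adjusted p = 0.993), without replicate 2 (adjusted p = 0.189) and over 0 to 4 h (-0.17, adjusted p = 0.206). MEIS1 fell in both arms, with slopes of -0.26 (SE 0.0192) and -0.23 (SE 0.0192), and its slope difference was 0.03 (adjusted p = 0.705).

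IRX3 and IRX5, neighbours in the Iroquois cluster that act in limb and heart, both fell in both arms. IRX3 read 189 and 168 TPM at 0 h and 98.5 and 82.8 TPM at 6 h in uninduced cells, and 151 and 160 TPM at 0 h and 43.8 and 51 TPM at 6 h in induced cells. IRX3 was below in both induced libraries at each time. Its slopes were -0.15 (SE 0.0237) and -0.27 (SE 0.0237), its 6 h difference -0.92 (SE 0.114, adjusted p = 8.65e-05) and its slope difference -0.12 (adjusted p = 0.0999). IRX5 went from 80.3 and 63.7 TPM to 21.8 and 18.6 TPM in uninduced and from 66.1 and 68.4 TPM to 12.4 and 12.2 TPM in induced cells. Its slopes were -0.32 (SE 0.0295, adjusted p = 2.24e-09) and -0.44 (SE 0.0295, adjusted p = 7.71e-12). IRX5 had a 6 h difference of -0.67 (SE 0.149, adjusted p = 0.0078), which lost its call without uninduced 6 h replicate 1 (adjusted p = 0.118) or either induced 6 h library (adjusted p = 0.0591 and 0.054).

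TGIF1, a corepressor of SMAD signalling, was the most abundant member and the one with the most negative slope in both arms. It read 472 and 566 TPM at 0 h and 36.8 and 31.2 TPM at 6 h in uninduced cells, so that 6.54% of the level at 0 h was left. In induced cells it read 507 and 509 TPM at 0 h and 25.4 and 22.1 TPM at 6 h, with 4.68% left. Its slopes were -0.68 (SE 0.0319, adjusted p = 1.82e-14) and -0.77 (SE 0.0319, adjusted p = 1.09e-15). The slope difference of TGIF1 was -0.09 (adjusted p = 0.40) and the 6 h difference -0.50 (SE 0.113, adjusted p = 0.00915), which lost its call without uninduced 6 h replicate 1 (adjusted p = 0.154) or induced 6 h replicate 2 (adjusted p = 0.121). For TGIF2, its paralogue, the uninduced level was 64.9 ± 4.50 TPM at 0 h and 75.1 ± 11.8 TPM after 6 h (SD, n = 2), and it overlaps the readthrough gene TGIF2-C20orf24 (mean 19.4 TPM).

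PBX2 had the most positive slope of the members in each arm. It went from 10.5 and 8.54 TPM at 0 h to 22.9 and 24.3 TPM at 6 h in uninduced cells, and from 7.94 and 7.55 TPM to 25.8 and 29.5 TPM in induced cells. Its slopes were 0.20 (SE 0.0236, adjusted p = 7.01e-08) and 0.26 (SE 0.0236, adjusted p = 7.32e-10), and its slope difference was 0.06 (adjusted p = 0.493). PBX3 and PBX4 passed in neither arm. MEIS3 and PKNOX1, another HOX partner, rose in both arms with slopes of 0.07 to 0.13.

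Among the DLX and MSX genes, which act in jaw, tooth and limb, the means were 49.3 TPM for DLX1, 43.5 for DLX2, 2.81 for DLX3, 1.00 for DLX4 and 55.0 for MSX1. MSX1 read 71.1 and 61.4 TPM at 0 h and 54.1 and 45.0 TPM at 6 h in uninduced cells, and 55.4 and 51.8 TPM at 0 h and 27.6 and 26.2 TPM at 6 h in induced cells. The libraries of the arms did not overlap at 0 h or at 6 h. The 6 h difference of MSX1 was -0.85 (SE 0.109, adjusted p = 1.15e-04) and its mean difference -0.40 (SE 0.0443, adjusted p = 1.24e-05). DLX1 and DLX2, which are neighbours, fell in both arms, with slopes of -0.16 in uninduced cells for both and of -0.28 and -0.32 in induced cells. DLX1 was lower at 6 h, at 18.8 and 17.3 TPM against 29.9 and 26.7 TPM, a difference of -0.62 (SE 0.171, adjusted p = 0.0301) that was lost without any of the 4 libraries of 6 h (adjusted p = 0.0684 to 0.225). The DLX1 level is a sum of 2 transcripts, and the 6 h gap lay mainly in the minor one, as given under the other observations. DLX2 had a 6 h difference of -0.47 (SE 0.195, adjusted p = 0.16). DLX3 was the 1 member higher in induced cells, with a mean difference of 0.41 (SE 0.104, adjusted p = 0.00864). It read 3.04 and 1.47 TPM at 0 h in uninduced and 3.77 and 2.99 TPM in induced cells, where the libraries overlapped, and 0.59 and 0.44 TPM against 1.26 and 0.93 TPM at 6 h.

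The paired-class genes were PITX1 (mean 121 TPM), a hindlimb and pituitary factor, PITX3 (4.51 TPM) of lens and dopaminergic neurons, and PRRX2 (7.73 TPM) of skeletal mesenchyme. PITX1 read 128 and 98.6 TPM at 0 h and 161 and 130 TPM at 6 h in uninduced cells, and 105 in both libraries at 0 h and 87.1 and 96.9 TPM at 6 h in induced cells. At 4 h the arms overlapped, at 129 and 136 TPM in uninduced and 136 and 134 TPM in induced cells. Its 6 h difference was -0.65 (SE 0.12, adjusted p = 0.00214), with adjusted p = 0.0572 without uninduced 6 h replicate 1. The mean difference of PITX1 was -0.14 (adjusted p = 0.0449) and lost its call in 22 of 34 alternatives. PITX3 and PRRX2 had 6 h differences of -0.65 (adjusted p = 0.195) and -0.82 (adjusted p = 0.138), with both induced libraries under both uninduced libraries, and did not pass.

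The zinc finger homeobox factors were ZEB1 (mean 47.0 TPM) and ZEB2 (8.4 TPM), repressors of epithelial genes, and ZHX1 (106 TPM), ZHX2 (11.8 TPM) and ZHX3 (25.3 TPM). CUX1 (24.7 TPM) is a cut-domain factor whose locus also encodes a Golgi protein, and the summed value holds both. ZEB1 read 48.1 and 40.4 TPM at 6 h in uninduced and 31.3 and 33.3 TPM in induced cells, a difference of -0.44 (SE 0.10, adjusted p = 0.00946), and at 2 h it was higher in both induced libraries (57.1 and 59.2 TPM against 51.7 and 55.4 TPM). ZHX3 read 25.1 and 23.6 TPM at 6 h in uninduced and 16.5 and 17.6 TPM in induced cells, a difference of -0.49 (SE 0.118, adjusted p = 0.0129). Without uninduced 6 h replicate 1 the adjusted p at 6 h was 0.179 for ZEB1 and 0.128 for ZHX3, and without induced 6 h replicate 1 it was 0.108 and 0.124. The slope difference of ZHX3 was -0.09 (SE 0.0207, adjusted p = 0.0571), the smallest adjusted p among members that did not pass. ZHX1 rose in both arms, with slopes of 0.12 (SE 0.0152, adjusted p = 4.05e-07) and 0.09 (SE 0.0152, adjusted p = 2.26e-05), ZHX2 fell in both (-0.13 and -0.20), and CUX1 rose in both, with slopes of 0.07 (SE 0.019, adjusted p = 0.00203) and 0.10 (SE 0.019, adjusted p = 4.76e-05). The overlapping readthrough ZHX1-C8orf76 was listed at a mean of 15.1 TPM.

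Cofactors of these factors and regulators of the HOX clusters were taken from lists. Of 23 measured partners and corepressors, 19 rose and none fell in uninduced cells, and 13 rose and 1 fell in induced cells. Examples were HDAC2, a histone deacetylase, with an uninduced slope of 0.19 (adjusted p = 3.21e-10) and KDM1A, a histone demethylase, with 0.26 (adjusted p = 7.52e-10). The median uninduced slope of the list was 0.14, against 0.04 for all genes, of which 42.8% rose and 22.3% fell in uninduced and 41.6% rose and 29% fell in induced cells. At 6 h 1 of the 23 was lower in induced cells, GMNN, geminin, at -0.64 (adjusted p = 4.03e-04), against 8.04% of all genes. Of 22 chromatin regulators of the HOX clusters, mostly of the Trithorax and Polycomb groups, 16 rose and 2 fell in uninduced cells, and 2 were lower at 6 h: PHC2, a Polycomb subunit, at -0.73 (adjusted p = 1.79e-04), and CTCF, the insulator factor, at -0.45 (adjusted p = 0.0421), set against the same share of all genes. BMI1, also a Polycomb subunit, had the steepest rise of that list, at 0.39 per hour (adjusted p = 6.4e-09).

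Of 39 measured homeobox genes outside the name pattern, 17 fell and 7 rose in uninduced cells, while 22.3% of all genes fell and 42.8% rose. In induced cells 24 fell and 3 rose, while 29% of all genes fell and 41.6% rose. None of the 39 passed for the slope difference by limma, with 11 at an unadjusted p under 0.05 against 12.5% of all genes. At 6 h 10 were lower in induced cells and none was higher, with a median of -0.24, while 8.04% of all genes were lower and 1.1% higher. TLX3, a factor of sensory neurons, was lower by -1.29 (adjusted p = 1.38e-05), ADNP2 by -0.76 (adjusted p = 4.8e-04), NKX2-5, a heart factor, by -0.89 (adjusted p = 0.00309) and ADNP by -0.47 (adjusted p = 0.00421). CERS2, a ceramide synthase with a homeobox-like domain, rose in uninduced cells, with a slope of 0.26 (adjusted p = 2.37e-10). Of 14 noncoding RNAs of homeobox loci, 1 was lower at 6 h, HOXA11-AS (mean 5.78 TPM), at -0.87 (adjusted p = 0.047), also against 8.04% of all genes. It lies opposite HOXA11, and since strandedness is not given in the sources used here, the reads of HOXA11 and its antisense partner cannot be told apart. HOTAIR, transcribed opposite the HOXC genes, rose in uninduced cells with a slope of 0.16 (adjusted p = 1.21e-04), while the nearby HOXC11 fell.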

How the data were processed

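Bromouridine-labelled cytoplasmic RNA of U2OS cells was measured in 24 libraries, 12 per arm. The deposited values are TPM per RefSeq transcript, so the sequencing depth is unknown and no counting error or interval can be given. Per the submitters' processing notes, RSEM 1.3.0, Bowtie2, Trim Galore and hg19 were used, with no order or role given. Strandedness and the pulse length are not given in the sources used here. All value columns matched a library by name.

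TPM of 48009 transcripts (3 without a symbol) was summed per symbol, and 13416 of 25341 symbols with a mean of at least 1 TPM were kept. After adding a pseudocount of 1 and taking log2, TPM was modelled in R 4.3.3 by limma 3.58.1, with a variance trend and no replicate term. One model gave each arm a line on hours (20 residual degrees of freedom), and a model of 12 group means (12 residual degrees of freedom) gave the differences at 0 h, at 6 h and over the 6 times. Tests were two-sided and adjusted by Benjamini-Hochberg over all genes kept, with a threshold of 0.05. Fold differences on this scale understate the change of low genes. On simulated data with 200 of 13416 genes changed, slope differences of 0.2 per hour were recovered for 86 of 100 genes and of 0.1 for 25 of 100, with 8 false calls. The simulated courses were straight lines with only the spread within groups. Many members peaked within the chase, so the recovery in the measured data may be lower.

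The members and gene lists were chosen with earlier results of these data known. Some members and genes are not reported here, though they stay in the counts. Each other member is named. Full values went to SIX2, to members past the threshold in a comparison of the arms, to the 4 steepest slopes per arm and direction, and to up to 4 genes with the smallest p per list. The lists were partners and cofactors, chromatin regulators of HOX clusters, other homeobox genes, noncoding RNAs of homeobox loci, and osteoblast, epithelial and leukocyte markers. Alternatives covered pseudocount, filter, scaling, replicate block, variance trend, shorter chase and left-out libraries. RefSeq tables of GRCh38.p14 gave names, neighbours and the promoter. Tables were handled with pandas 2.3.3 in Python 3.11.15 and drawn with matplotlib 3.10.9.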

Additional observations from a re-analysis of the deposited data

Results flagged for a closer look

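The slope along the chase differed between the arms for SIX2 and MEIS2 by limma's test of the difference itself. For SIX2 the induced slope minus the uninduced slope was -0.23 log2 per hour (adjusted p = 0.00807), negative in both replicate series. For MEIS2 it was -0.15 log2 per hour (adjusted p = 0.00807), also negative in both replicate series. Neither call remained without induced 6 h replicate 1, where the adjusted p was 0.0677 for both.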

How the results depend on the processing

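Of 3862 alternative values of single members and comparisons, 3614 kept their direction and their side of the threshold, 239 no longer passed, 4 newly passed, all for the uninduced slope of SIX2, and 5 changed sign. The sign changes of called values were the induced slope of HOXA10 (0.0124) and the uninduced slope of SIX4 (0.00423) over 0 to 4 h, and the uninduced slopes of PITX1 (-0.0175) and TGIF2 (-0.0241) under quantile normalization. The fifth was the uninduced slope of SIX2, called in neither, at 0.0245 over 0 to 4 h. Members called for the slope difference, 2 in all, numbered 8 without RMRP, MIR6723 and RPPH1 (2.36% of all genes lower), 11 with protein-coding transcripts only (3.32%), 18 with the trend contrast of the group means, which takes its spread from the group model (5.87%), and 0 over 0 to 4 h, with no gene lower. The uninduced slope called 28 members, and 16 over 0 to 4 h, where 11.4% of all genes fell and 38.8% rose. Leaving out single libraries or a replicate series gave 0 to 4 members for the slope difference, 16 to 28 for the uninduced slope and 30 to 38 for the induced slope. Leaving out single libraries gave 0 to 0 at 0 h, 9 to 19 at 6 h and 15 to 20 for the mean difference. The slope difference called 0 members without replicate 1, without replicate 2 or without induced 6 h replicate 1, and 4 without uninduced 6 h replicate 2 or induced 0 h replicate 2. Group differences with 1 library left assume that it varies like the other groups. Same-numbered libraries of the arms deviated together with correlations of 0.0203 to 0.156, all positive and above 0.1 at 0.5, 1 and 4 h. The numbers were not taken as pairs in the main fit. With a replicate block the calls numbered 3 for the slope difference and 29 and 37 for the uninduced and induced slopes. They numbered 0 at 0 h, 20 at 6 h and 22 for the mean difference. Of all genes, 0.723% were then lower by slope difference. In uninduced and induced cells 23.0% and 29.9% of all genes fell and 44.0% and 42.7% rose. At 6 h 10.9% were lower and 3.03% higher, against 8.04% and 1.1% without the block. By mean difference 13.9% were lower and 21.3% higher. The direction of the 19 differences at 6 h and of the slope differences of SIX2 and MEIS2 was kept under each scaling. TPM keeps no depth, so what depth limits could not be measured, and slopes are relative to the other labelled RNA of a library.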

Other observations

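TPM of the members was summed over transcripts, and 31 of the 51 members had 1 transcript in the table and 20 had several. MEIS2 had 9, and its leading transcript held 39.5% of the gene's mean level. At 6 h that transcript was at 0.227 times its uninduced level in induced cells, while the summed MEIS2 level in uninduced cells was 1.84 times that in induced cells. HOXA10 had a coding and a noncoding transcript. At 6 h the coding transcript of HOXA10 was at 0.504 times and the noncoding transcript at 1.34 times its uninduced level in induced cells. DLX1 had 2 transcripts, and the leading one held 82.0% of the gene's mean level. At 6 h this leading transcript differed little between the arms, at 15.5 TPM with and 17.0 TPM without induction (0.912 times). The minor DLX1 transcript was at 2.59 TPM with and 11.3 TPM without induction (0.228 times). These are values of 2 libraries per group with no test, and the split of reads between transcripts of 1 gene is uncertain.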
